A study of Mus musculus with 12 samples.

Results

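The genes of the mouse chemokine system were followed across 4 groups of bone marrow haematopoietic stem and progenitor cells (HSPCs), the cells from which the blood lineages arise. They were chosen by name: protein-coding genes of the chemokine ligand families (Ccl, Cxcl, Xcl, Cx3cl) and of the matching receptor families (Ccr, Cxcr, Xcr, Cx3cr) with at least 10 counts summed over the 12 libraries. That rule gave 46 genes, 27 ligands and 19 receptors, of the 54532 gene identifiers counted. The annotation names 63 protein-coding genes of these families in the count table, of which 17 were below the minimum, 14 of them with no count at all.

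The 12 libraries formed 4 labelled groups of 3. They were aged HSPCs cultured with uridine, aged HSPCs cultured with vehicle, uncultured aged HSPCs and uncultured young HSPCs, all from bone marrow of wild-type mice. Uridine is a pyrimidine nucleoside. The genotype label reads c57bl/6 in the 3 vehicle libraries, runs from c57bl/7 to c57bl/9 in the uridine libraries, from c57bl/10 to c57bl/12 in the young and from c57bl/13 to c57bl/15 in the aged libraries, so the strain is uncertain. No source used here gives the ages of the mice, the markers used for sorting, how long the cells were cultured, how much uridine they received or whether animals were pooled. Nor do the labels tie a library to its own mouse or culture, and the p-values therefore cover library-to-library spread that may be technical.

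Chemokines are small secreted or membrane-held proteins that bind G protein-coupled receptors and steer the movement of cells along their gradients. In bone marrow, Cxcl12 from stromal cells retains stem and progenitor cells and B cells through Cxcr4, Ccr2 and its ligands draw monocytes out into the blood, and Cxcr2 and its ligands do the same for neutrophils. Other receptors mark where lymphocytes go, such as Cxcr5 for B-cell follicles, Ccr7 for lymph nodes and Ccr10 for the mucosal and skin sites of antibody-secreting cells.

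Library totals ran from 16785065 to 19025802 counts. Levels are CPM after TMM scaling. Calls are those of edgeR's quasi-likelihood test at a Benjamini-Hochberg adjusted p under 0.05 over 16675 genes, among them 37 of the 46 chemokine system genes. The stem and progenitor markers Kit and Cd34 averaged at least 201 CPM in every group. Ly6a, which encodes the stem cell antigen Sca-1, averaged 258 CPM in uridine cultures, 455 in vehicle cultures, 247 in aged and 17.8 in young libraries. Marker genes of other cells were present too. The summed level of 12 plasma cell markers was 889 to 923 CPM in uridine cultures, 1340 to 1390 in vehicle cultures, 26300 to 26500 in aged and 694 to 708 in young libraries, and that of 13 neutrophil markers was 2330 to 2410 CPM in uridine cultures, 397 to 403 in vehicle cultures, 627 to 670 in aged and 6170 to 6360 in young libraries. The uridine libraries stood between the vehicle and young libraries: for 145 genes outside the chemokine system whose young level was at least 10 times the vehicle level, the uridine level lay at a median of 0.333 of the way from vehicle to young (quartiles 0.31 and 0.363). Because these are bulk libraries, fewer cells of a type and less RNA per cell cannot be told apart in any comparison here.

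All 4 groups expressed both ligands and receptors, but the group with the highest level was most often a different one for ligands than for receptors. Among the 21 ligands tested, the mean level was highest in vehicle cultures for 11, in young libraries for 7, in uridine cultures for 2 and in aged libraries for 1. Among the 16 receptors tested, 10 were highest in uncultured aged libraries, and in all 10 the aged libraries did not overlap with those of the next group, as held for 22.3% of all genes tested. Of the ligands, 8 of the 11 highest in vehicle cultures, 4 of the 7 in young, 0 of the 2 in uridine and the 1 in aged libraries stood apart in this way. Of all genes tested, 29.6% were highest in vehicle, 25.6% in young, 9.85% in uridine and 35% in aged libraries. Those highest and apart from the next group were 15.6%, 13.4%, 1.7% and 22.3% of all genes in the same order. The summed ligand level was 650 ± 11.9 CPM in uridine cultures, 902 ± 14.2 in vehicle cultures, 237 ± 5.87 in aged and 485 ± 8.65 in young libraries (SD, n = 3 each). The summed receptor level was 415 ± 5.37 CPM in uridine cultures, 431 ± 4.82 in vehicle cultures, 539 ± 3.52 in aged and 394 ± 9.63 in young libraries. Single genes held much of these sums. Cxcr4 made up 49.1% of the receptor sum in aged and 53.7% in young libraries. Ccl9 and Cxcl10 made up 35.4% and 25.6% of the ligand sum in vehicle cultures. The aged libraries had the lowest ligand sum, also with library totals alone as the scale, a setting chosen here after the data were seen. They had the highest receptor sum on the TMM scale only: with library totals it was 454 ± 4.71 CPM in vehicle cultures and 450 ± 2.8 CPM in aged libraries, which overlapped.

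Per length of transcript (RPKM, CPM per kilobase of exon), Ccl3, a ligand of Ccr1 also known as macrophage inflammatory protein 1 alpha, was the most abundant ligand in each of the 4 groups. It stood at 129 ± 2.06 RPKM in uridine cultures, 112 ± 4.2 in vehicle cultures, 54.8 ± 2.85 in aged and 226 ± 0.908 in young libraries. Below it the order changed: Ccl9 and Ccl4 followed in uridine cultures, at 69.2 ± 1.06 and 68.9 ± 2.81 RPKM with overlapping libraries, Ccl5 in aged libraries and Ccl4 in young libraries. In vehicle cultures Ccl9 and Cxcl10 followed at 105 ± 0.995 and 102 ± 2.96 RPKM, with overlapping libraries, whereas Cxcl10 reached only 8.12 ± 0.278 RPKM in aged libraries. Among receptors Cxcr4 came first in every group, at 70.6 ± 3.24 RPKM in uridine cultures, 46.3 ± 1.11 in vehicle cultures, 146 ± 2.34 in aged and 117 ± 3.86 in young libraries. The receptor next in order was Ccr2 in uridine, vehicle and young libraries, at 23.7 ± 0.242, 28.3 ± 0.647 and 14.4 ± 0.608 RPKM, and Ccr7 in aged libraries, at 44.6 ± 3.01 RPKM, followed there by Ccr10 at 22.6 ± 1.68 RPKM.

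**Figure D1:**
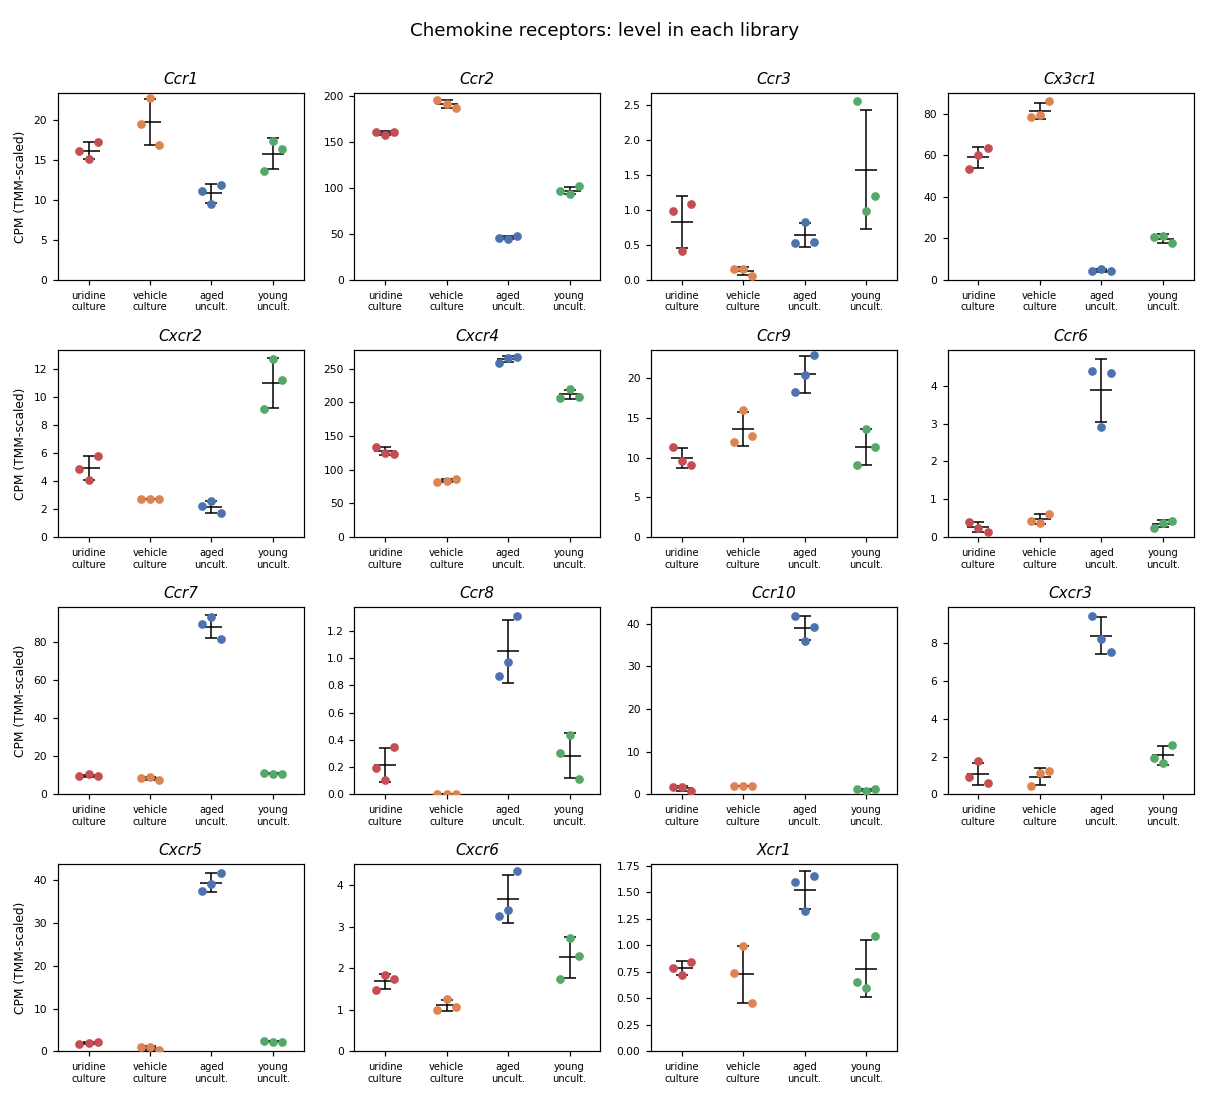
TMM-scaled CPM (linear axis from 0, own scale per gene) of 15 chemokine receptors in each library; points are libraries, bars the mean and SD of 3 per group, and "uncult." means uncultured. Ccr7, Ccr10 and Cxcr5 averaged 88.1, 39 and 39.4 CPM in aged libraries and no more than 10.8 CPM in any other group, while Ccr2 and Cx3cr1 were highest in vehicle cultures.

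Uncultured aged and young HSPCs were compared to describe what differed between the 2 groups. Sorting, handling and sequencing of aged and young cells cannot be told apart from age with the labels given. Ccr10, Cxcr5 and Ccr7, receptors that lymphocytes and plasma cells use for homing, were higher in aged libraries, and 11 of the 21 ligands tested were lower. Of the 37 genes tested, 12 were higher, 16 lower and 9 not called; the background is high, since 65.3% of all genes tested were called (33.2% higher, 32.1% lower). By role, 10 receptors rose and 5 fell of 16, and 2 ligands rose and 11 fell of 21. The median log2 fold change, aged over young, was 0.78 over the receptors and -1.12 over the ligands, against 0.02 over all genes tested. The libraries of the groups did not overlap for 28 of the 37 genes, and for 66.9% of all genes. With library totals alone as the scale, which moves the median of all genes by -0.34 on the log2 scale, 9 rose and 21 fell.

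Ccr10, the receptor of antibody-secreting cells that home to mucosa and skin, showed the highest fold of the 12. Its level was 41.7, 36 and 39.3 CPM in aged libraries, against 1.3, 0.712 and 1.15 CPM in young libraries. The aged libraries were all far above the young ones (log2 fold change 5.19, SE 0.184, edgeR adjusted p = 7.29e-24). Cxcr5, which brings B cells into follicles, was at 37.4, 39.2 and 41.7 CPM in aged libraries, against 2.5, 2.3 and 2.3 CPM in young libraries (log2 fold change 4.05, SE 0.152, edgeR adjusted p = 4.4e-23). Ccr7, the receptor for lymph node entry, was at 89.5, 93.3 and 81.6 CPM in aged libraries, against 11.2, 10.5 and 10.7 CPM in young libraries (log2 fold change 3.03, SE 0.0829, edgeR adjusted p = 2.36e-27). For none of these 3 receptors did the groups overlap.

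The other receptors that rose are mostly carried by lymphocytes and dendritic cells. Ccr6, found on B cells and on helper T cells, averaged 3.89 ± 0.835 CPM in aged and 0.357 ± 0.0965 CPM in young libraries, a 10.8-fold difference. Cxcr3, a receptor of activated T and natural killer cells, averaged 8.39 ± 0.985 CPM in aged and 2.06 ± 0.509 CPM in young libraries. Ccr9, the gut-homing receptor for Ccl25, averaged 20.5 ± 2.28 CPM in aged and 11.3 ± 2.24 CPM in young libraries. Smaller rises were called for Ccr8 (3.64-fold), Xcr1 of cross-presenting dendritic cells (1.95-fold) and Cxcr6 (1.63-fold), each at 3.67 CPM or less. These 3 calls were lost when single libraries were left out: Ccr8 without young replicate 3 (adjusted p = 0.0519), Cxcr6 without aged replicate 3 or young replicate 1 (0.0954 and 0.106), and Xcr1 without aged replicate 1 or 3 or young replicate 1 or 2 (0.0862 to 0.133). With library totals alone Cxcr6 and Xcr1 were not called either (0.225 and 0.179).

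Cxcr4, the receptor that holds HSPCs in the marrow, stood at 259, 266 and 267 CPM in aged libraries, against 207, 220 and 208 CPM in young libraries. All aged libraries were above the young ones, with a log2 fold change of 0.32 (SE 0.0348, edgeR adjusted p = 4.09e-10), but the value was -0.02 with library totals alone (adjusted p = 0.616). Its ligand Cxcl12 was at 6.92, 5.78 and 4.82 CPM in aged libraries, against 1.35, 1.15 and 1.15 CPM in young libraries. The aged libraries were the higher ones without overlap (log2 fold change 2.26, SE 0.321, edgeR adjusted p = 1.43e-07). The summed level of 14 marrow stroma and endothelium markers, cells known to make Cxcl12, ran the other way, at 136 to 154 CPM in aged and 664 to 692 CPM in young libraries. Col1a1 and Col1a2 weighed heavily in the young sum, at 272 and 208 CPM in young and 0.96 and 2.5 CPM in aged libraries. Pecam1, which weighed heavily in the aged sum, averaged 107 CPM in aged and 118 CPM in young libraries. Of the 13 tested markers of this list 2 were higher and 7 lower in aged libraries, and Bglap had no count there. Lepr, a marker of the Cxcl12-rich stromal cells, averaged 1.52 CPM in aged and 0.284 CPM in young libraries.

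B-cell and plasma cell markers were high in the same aged libraries as Ccr10, Cxcr5, Ccr7 and Ccr6. Of 12 plasma cell markers all 12 were higher in aged libraries. Of 14 B-cell markers 10 were higher and 4 lower, with a summed level of 2420 to 2520 CPM in aged and 888 to 893 CPM in young libraries. T and natural killer cell markers summed to 393 to 430 CPM in aged and 202 to 206 CPM in young libraries, with 11 of 18 higher and 4 lower. Dendritic cell markers went mostly the other way, with 3 of 13 higher and 9 lower. They summed to 1030 to 1060 CPM in aged and 1110 to 1140 CPM in young libraries. None of these lists had a marker at 0 in either group, and the part of these cells in the receptor differences was not tested.

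Ccl5, the T and natural killer cell chemokine also called RANTES, was with Cxcl12 the other ligand that rose. It stood at 38.4, 38.8 and 37.1 CPM in aged libraries, against 6.4, 5.26 and 6.18 CPM in young libraries, a log2 fold change of 2.68 (SE 0.0848, edgeR adjusted p = 2.38e-25). Its neighbours in the same cluster on chromosome 11 went the other way. Ccl3 was at 41.8, 44.3 and 39.9 CPM in aged libraries, against 172, 173 and 174 CPM in young libraries (log2 fold change -2.04, SE 0.0447, edgeR adjusted p = 1.87e-30). Ccl4, also known as macrophage inflammatory protein 1 beta, was at 20.8, 18.8 and 20.4 CPM in aged libraries, against 86.3, 82.5 and 92.7 CPM in young libraries (log2 fold change -2.12). Neither gene's libraries overlapped between the groups, and the aged levels were 0.243 and 0.23 of the young ones. Ccl6 and Ccl9, rodent ligands of Ccr1 made by myeloid cells, averaged 6.31 ± 0.828 and 86.8 ± 4.01 CPM in aged libraries, against 37.9 ± 1.51 and 115 ± 3.37 CPM in young libraries.

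Several ligands and receptors of monocyte and neutrophil traffic were lower in aged libraries, though not Cxcl1, Cxcl5 and Ccl12, which were not called. Ccl2, the main monocyte attractant, was at 0.599, 1.88 and 0.62 CPM in aged libraries, against 5.95, 7.45 and 5.63 CPM in young libraries (log2 fold change -2.62, and -3.36 without aged replicate 2). Its receptor Ccr2 averaged 46.2 ± 1.96 CPM in aged and 97.3 ± 4.11 CPM in young libraries, and Cx3cr1, the fractalkine receptor of monocytes, averaged 4.61 ± 0.651 CPM in aged and 19.9 ± 2.06 CPM in young libraries. Cxcr2, through which neutrophils leave the marrow, averaged 2.19 ± 0.431 CPM in aged and 11 ± 1.78 CPM in young libraries, and its ligand Cxcl2 averaged 4.7 ± 0.325 CPM in aged and 18.6 ± 1.4 CPM in young libraries. Cxcl3, another Cxcr2 ligand, and Ccl7, another Ccr2 ligand, had no count in aged libraries, so that they were at least 5.69-fold and 3.36-fold lower there, with the bound set at 3 counts over the group (fitted log2 fold changes -5.83 and -5.09, and -5.12 and -4.30 without young replicate 3). Ccr1, Ccl25, Cx3cl1, Ccl22 and the eosinophil and basophil receptor Ccr3 fell as well. The fall of Ccl22 was lost without young replicate 1 (adjusted p = 0.122), and its fitted log2 fold change of -3.59 was -5.70 without aged replicate 1. The fall of Ccr3 was lost without aged replicate 1 or 3 or young replicate 1 (adjusted p 0.0538 to 0.222).

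Markers of mature neutrophils fell in step with Cxcr2: 13 of 13 were lower in aged libraries. Monocyte and macrophage markers summed to 1230 to 1250 CPM in aged and 2310 to 2380 CPM in young libraries, with 3 of 17 higher and 10 lower. No marker of either list was at 0 in these groups, and their part in the result was not tested. The 9 genes without a call included the interferon-induced ligand Cxcl10, at 18.6, 18.7 and 17.6 CPM in aged libraries, against 20.3, 18.6 and 17.2 CPM in young libraries. Those libraries overlapped. The log2 fold change of Cxcl10 was -0.03 with an SE of 0.0694, and -0.38 with library totals alone (adjusted p = 9.54e-06). Ccl27a, Xcl1, Cxcl1, Cxcl5, Cxcl9, Cxcl16 and Ccl12 were not called either, Ccl12 with no count in either group. Cxcl1 was called without aged replicate 3 or young replicate 3 (adjusted p = 0.0271 and 0.0121), and Cxcl9 without aged replicate 1 (0.0275). With library totals alone Cxcl1, Cxcl9 and Ccl27a were called lower in aged libraries (adjusted p = 0.026, 0.034 and 0.00894).

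Beyond the family itself, 4 lists of related genes were read from the same fit. Of 11 atypical receptors and chemokines with other names, 4 were higher and 4 lower in aged libraries. Cd74, a receptor for the cytokine Mif and the invariant chain of antigen presentation, averaged 4110 ± 112 CPM in aged and 245 ± 4.48 CPM in young libraries, and Ackr3, which scavenges Cxcl12, averaged 10.2 ± 2.55 CPM in aged and 0.439 ± 0.19 CPM in young libraries. Of 32 genes of G protein signalling below the receptors, 11 rose and 17 fell, among them the kinase Ptk2b, at 258 ± 5.15 CPM in aged and 121 ± 4.74 CPM in young libraries. Of 15 genes listed for switching receptors off (desensitisation), among which Dpp4 was counted though it acts on ligands, 7 rose and 7 fell. Dpp4, a peptidase that trims chemokines such as Cxcl12, averaged 27.2 ± 2.03 CPM in aged and 81.3 ± 3.48 CPM in young libraries, while Rgs1, which shortens G protein signals, averaged 283 ± 4.61 CPM in aged and 171 ± 1.24 CPM in young libraries. Of 26 genes of the cytokine and NF-kB pathways that induce chemokines, 11 rose and 9 fell. These include inhibitors of NF-kB such as Nfkbia and Tnfaip3, so the counts do not give a direction of induction. The inducing cytokines Tnf and Il1b averaged 10.2 ± 1.02 and 0.873 ± 0.529 CPM in aged libraries, against 57.8 ± 1.88 and 20.9 ± 0.644 CPM in young libraries. The medians of the 4 lists lay between -0.09 and 0.12 on the log2 scale, against 0.02 over all genes.

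Vehicle cultures were compared with uncultured aged cells to describe what differed between culture and no culture, with no uridine in either. Most ligands, Cxcl10, Ccl2 and Ccl9 among them, were higher in culture, as were Ccr2 and Cx3cr1, while Cxcr5, Ccr7, Ccr10, Cxcr4 and Cxcl12 were lower. Of the 37 genes tested, 22 rose, 14 fell and 1, Cxcr2, was not called, where 70.5% of all genes were called (35.4% higher, 35.1% lower). Of 21 ligands 18 rose and 3 fell, and of 16 receptors 4 rose and 11 fell. Changes reached at least 2-fold for 20 of the genes that rose and 12 of those that fell. How many of all genes tested reached 2-fold was not counted, so these numbers have no background to be read against. The libraries of the groups were apart without overlap for 37 of the 37 genes, and for 71.5% of all genes. The median log2 fold change, vehicle over aged, was 2.31 over the ligands and -1.69 over the receptors, against -0.01 over all genes. Library totals alone moved the median of all genes by 0.33 on the log2 scale and gave 23 genes higher and 11 lower. Time, handling and sequencing of cultured and uncultured cells cannot be told apart from culture in this design.

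Promoter sequences are shown for 5 ligands that rose in culture, the 3 neutrophil chemokines Cxcl1, Cxcl2 and Cxcl3, which have a run of letters in common, and the abundant Cxcl10 and Ccl9. Each is 300 bases long, most of them before the gene's start in RefSeq (GRCm38.p6), and is written 5′ to 3′ on the gene's strand, with matches to a motif in capitals. They lie at chr5:90890995-90891294 (plus strand, Cxcl1), chr5:90903649-90903948 (plus, Cxcl2), chr5:90785851-90786150 (plus, Cxcl3), chr5:92348840-92349139 (minus, Cxcl10) and chr11:83578587-83578886 (minus, Ccl9).
Cxcl1: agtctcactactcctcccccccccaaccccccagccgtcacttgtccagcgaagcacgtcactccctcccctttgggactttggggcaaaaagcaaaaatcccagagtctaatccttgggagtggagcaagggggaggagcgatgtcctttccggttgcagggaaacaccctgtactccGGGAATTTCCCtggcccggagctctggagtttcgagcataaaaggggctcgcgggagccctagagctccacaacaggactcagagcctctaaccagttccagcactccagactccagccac
Cxcl2: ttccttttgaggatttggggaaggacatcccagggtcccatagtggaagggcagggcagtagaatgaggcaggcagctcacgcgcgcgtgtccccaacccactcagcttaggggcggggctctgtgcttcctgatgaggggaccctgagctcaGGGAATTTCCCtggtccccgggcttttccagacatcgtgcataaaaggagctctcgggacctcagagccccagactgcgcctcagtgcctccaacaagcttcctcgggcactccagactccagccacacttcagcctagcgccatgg
Cxcl3: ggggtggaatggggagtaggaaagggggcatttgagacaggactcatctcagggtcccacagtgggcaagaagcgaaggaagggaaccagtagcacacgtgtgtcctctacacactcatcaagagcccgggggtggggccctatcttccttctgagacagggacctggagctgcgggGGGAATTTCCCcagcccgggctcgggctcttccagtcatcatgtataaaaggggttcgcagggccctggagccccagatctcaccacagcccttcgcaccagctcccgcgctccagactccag
Cxcl10: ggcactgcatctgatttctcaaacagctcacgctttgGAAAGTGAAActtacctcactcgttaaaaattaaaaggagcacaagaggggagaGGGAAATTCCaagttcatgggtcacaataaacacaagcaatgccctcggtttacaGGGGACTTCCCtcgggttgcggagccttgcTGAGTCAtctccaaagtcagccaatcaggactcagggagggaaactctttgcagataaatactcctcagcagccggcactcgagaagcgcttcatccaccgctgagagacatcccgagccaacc
Ccl9: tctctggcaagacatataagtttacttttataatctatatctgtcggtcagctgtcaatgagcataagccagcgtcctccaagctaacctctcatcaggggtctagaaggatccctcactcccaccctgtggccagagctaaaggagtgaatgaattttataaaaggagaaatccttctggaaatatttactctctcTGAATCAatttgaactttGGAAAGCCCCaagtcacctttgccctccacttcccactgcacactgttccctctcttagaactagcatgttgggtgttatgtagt

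The capitals in Cxcl1, Cxcl2 and Cxcl3 are the same 11 letters, GGGAATTTCCC, which hold 2 overlapping matches to the NF-kB motif and begin at -71, -97 and -73 from the start. That run was present in 14 of 32851 mouse promoters of the same length (0.0426%). In Cxcl10 the capitals mark, in order, a match to the interferon-response motif (GAAA, any 2 bases, GAAA) at -213, NF-kB matches at -159 and -104, and a match to the AP-1 motif TGANTCA at -74. In Ccl9 they mark an AP-1 match at -53 and an NF-kB match at -35. Searched on both strands, the NF-kB motif was found in 10 of the 35 chemokine system genes with a promoter in the table (28.6%) and in 9.55% of all 27025 genes there, a gene being counted if any of its promoters held it. The interferon-response motif was found in 2 of 35 and in 3.99% of all genes, and the AP-1 motif in 8 of 35 and in 8.97% of all genes. The NF-kB match was not particular to genes that rose in culture. Ccl27a, Ccr3 and Ccr6, which were lower in vehicle cultures than in uncultured aged cells, also held one, as did Ccr1, which was higher. Ccl3, Ccl6, Ccl12, Ccl22, Ccl25, Cx3cl1, Cxcl9, Ccr2 and Cx3cr1 were higher there and held none. A match describes letters in this window and no more.

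The 3 monocyte attractants Ccl2, Ccl7 and Ccl12, neighbours at chr11:82035571-82103400, were close to absent from uncultured aged libraries. Ccl2 stood at 33.2, 33.6 and 33.1 CPM in vehicle cultures, against 0.599, 1.88 and 0.62 CPM in aged libraries, a 32.3-fold difference (log2 fold change 5.01, SE 0.184, edgeR adjusted p = 1.31e-23, and 5.76 on the log2 scale without aged replicate 2). Ccl7 was at 12.1, 13.7 and 15 CPM in vehicle cultures and had no count in the aged libraries. Ccl12 was at 2.16, 3.08 and 2.54 CPM in vehicle cultures and likewise had none in aged libraries. Set against 3 counts over the aged group, Ccl7 was at least 199-fold and Ccl12 at least 37.8-fold higher in vehicle cultures.

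Their receptor rose with them. Ccr2 was at 196, 192 and 187 CPM in vehicle cultures, against 46, 44.4 and 48.3 CPM in aged libraries (log2 fold change 2.05, SE 0.0428, edgeR adjusted p = 1.98e-31). Cx3cr1 was at 78.5, 79.5 and 85.9 CPM in vehicle cultures, against 4.26, 5.36 and 4.2 CPM in aged libraries (log2 fold change 4.14, SE 0.101, edgeR adjusted p = 2.71e-29). Both were higher in every vehicle library. Ccr1 averaged 19.7 ± 2.93 CPM in vehicle cultures and 10.8 ± 1.16 CPM in aged libraries.

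Monocyte and macrophage markers were high in the same libraries, with a summed level of 6530 to 6630 CPM in vehicle cultures and 1230 to 1250 CPM in aged libraries. Of 17 markers 14 rose and 3 fell, and none was at 0 in either group. Their part in the rise of these ligands and receptors was not tested.

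The neutrophil chemokines Cxcl1, Cxcl2 and Cxcl3, which lie in a cluster on chromosome 5, rose too. Cxcl2 was at 13.7, 15.9 and 11.6 CPM in vehicle cultures, against 4.33, 4.94 and 4.82 CPM in aged libraries (log2 fold change 1.55, SE 0.137, edgeR adjusted p = 1.83e-12). Cxcl1 was at 2.05, 1.81 and 2.2 CPM in vehicle cultures, where the aged libraries had 1 count in all, a ratio of 88.7 with a counting interval of 15.6 to 3540. Cxcl3, at 1.74, 2.36 and 2.43 CPM in vehicle cultures and with no count in aged libraries, was at least 31.7-fold higher. Cxcl5, the remaining tested gene of that cluster at chr5:90759360-90905938, was at 3.05, 4.01 and 4.12 CPM in vehicle cultures, against 3 counts in all in aged libraries (ratio 54.4, counting interval 18.3 to 266). Such intervals cover counting error only. Without aged replicate 3, which holds some of these few counts, the fitted log2 fold changes of Cxcl1 and Cxcl5 were 8.21 and 6.51, in place of 6.09 and 5.63. Their receptor Cxcr2 averaged 2.71 ± 0.0215 CPM in vehicle cultures and 2.19 ± 0.431 CPM in aged libraries, which was not called (edgeR adjusted p = 0.229); with library totals alone it was called higher (log2 fold change 0.64, adjusted p = 0.0115). Of 13 neutrophil markers 2 were higher and 11 lower, with a summed level of 397 to 403 CPM in vehicle cultures and 627 to 670 CPM in aged libraries. Mmp8, at 61 CPM in vehicle cultures and 2.13 CPM in aged libraries, and Chil3, at 72.1 CPM in vehicle cultures and 53.6 CPM in aged libraries, were the 2 that rose, and Ly6g had no count in vehicle cultures. Their part in these values was not tested.

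Cxcl10, an interferon-induced attractant of Cxcr3-bearing T cells, stood at 231, 237 and 224 CPM in vehicle cultures, against 18.6, 18.7 and 17.6 CPM in aged libraries. The vehicle libraries were 12.6-fold higher without overlap (log2 fold change 3.66, SE 0.0526, edgeR adjusted p = 1.4e-36). Cxcl9, its neighbour and another Cxcr3 ligand, averaged 4.52 ± 0.408 CPM in vehicle cultures and 0.474 ± 0.283 CPM in aged libraries (log2 fold change 3.22, and 3.83 without aged replicate 1). Cxcr3 itself fell, to 0.939 ± 0.451 CPM in vehicle cultures, against 8.39 ± 0.985 CPM in aged libraries. The pair Cxcl16 and Cxcr6 showed the same opposite directions. Cxcl16, a membrane-held ligand, was at 23.2, 27.4 and 23.6 CPM in vehicle cultures, against 2.66, 1.95 and 1.17 CPM in aged libraries (log2 fold change 3.67, SE 0.172, edgeR adjusted p = 2.69e-20), while Cxcr6 averaged 1.11 ± 0.136 CPM in vehicle cultures and 3.67 ± 0.585 CPM in aged libraries. The exons of Cxcl16 overlap those of Zmynd15 on the opposite strand over 18.27% of their length, and whether the counting used strand is not stated in the labels.

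In the ligand cluster on chromosome 11 that holds Ccl3 and Ccl4, Ccl9 changed most in absolute level, at 319, 316 and 322 CPM in vehicle cultures, against 86.1, 91.1 and 83.2 CPM in aged libraries (log2 fold change 1.88, SE 0.036, edgeR adjusted p = 1.22e-32). Ccl6 averaged 31.2 ± 2.17 CPM in vehicle cultures and 6.31 ± 0.828 CPM in aged libraries, and Ccl5 86.6 ± 2.46 CPM in vehicle cultures and 38.1 ± 0.894 CPM in aged libraries. Ccl3 and Ccl4 rose by 2.04-fold and 1.66-fold. All 5 genes of this cluster at chr11:83525778-83664683 were therefore higher in culture, whereas in aged against young libraries 4 were lower and Ccl5 was higher. Ccl22, which attracts Ccr4-bearing T cells, averaged 2.01 ± 0.525 CPM in vehicle cultures and had 1 count in aged libraries, in aged replicate 1, without which its fitted log2 fold change was 8.20 in place of 6.08. Ccl25 and Cx3cl1 rose by 2.24-fold and 2.61-fold.

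**Figure D2:**
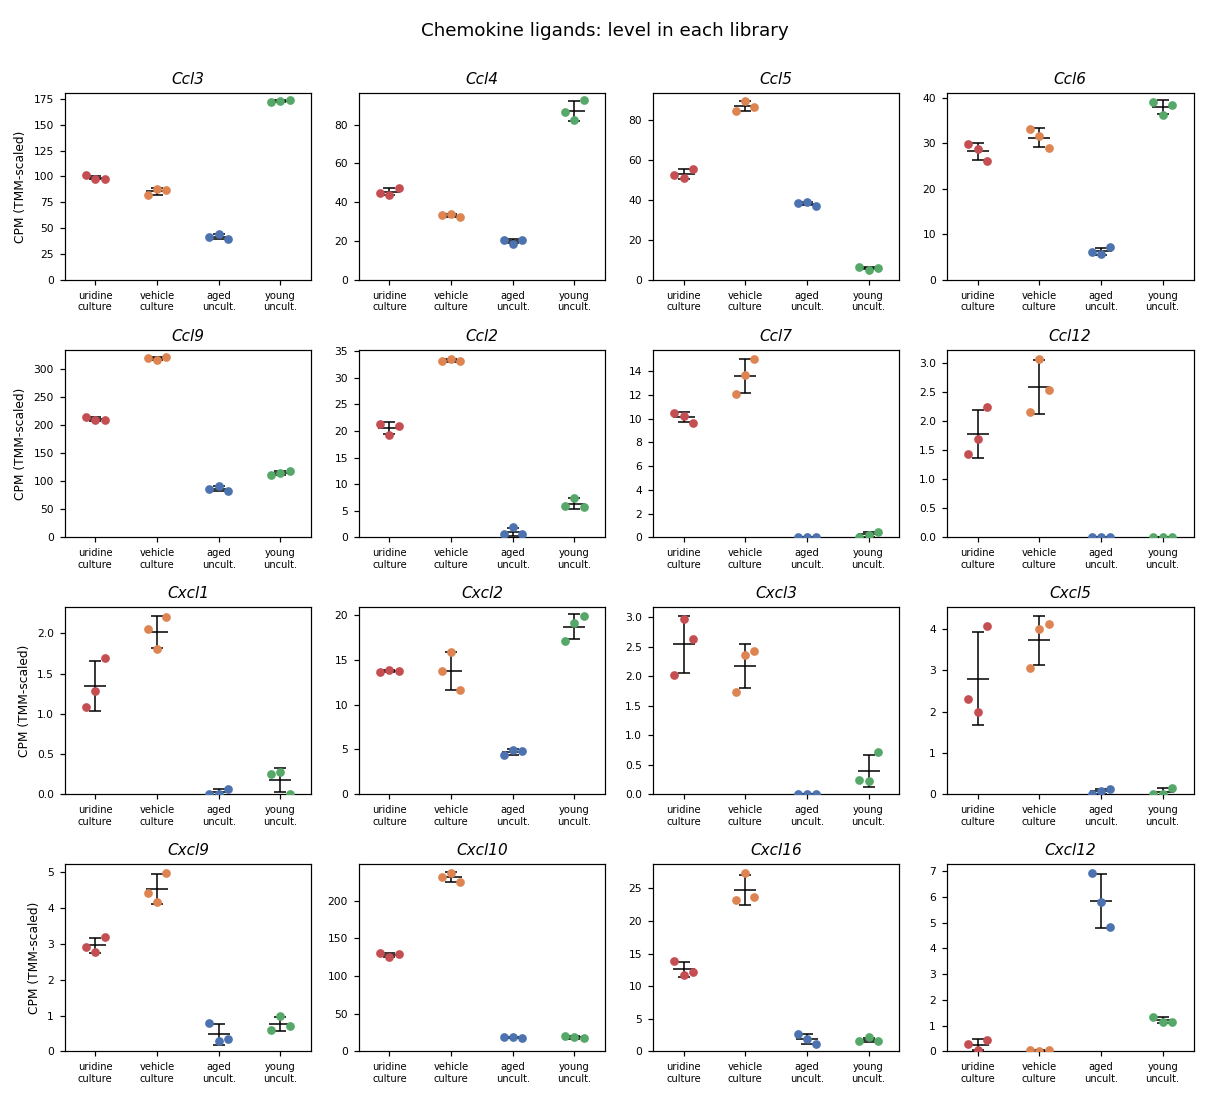
TMM-scaled CPM (linear axis from 0, own scale per gene) of 16 chemokine ligands in each library; points are libraries, bars the mean and SD of 3 per group, and "uncult." means uncultured. Ccl2, Ccl7, Cxcl10 and Cxcl16 were highest in vehicle cultures, at 33.3, 13.6, 231 and 24.7 CPM, Ccl3 and Ccl4 in young libraries, at 173 and 87.1 CPM, and Cxcl12 in aged libraries, at 5.84 CPM.

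The receptors that had been high in aged libraries were low in culture. Cxcr5 was at 1.1, 0.934 and 0.339 CPM in vehicle cultures, against 37.4, 39.2 and 41.7 CPM in aged libraries (log2 fold change -5.61, SE 0.182, edgeR adjusted p = 2.8e-25). Ccr7 was at 8.52, 9.01 and 7.51 CPM in vehicle cultures, against 89.5, 93.3 and 81.6 CPM in aged libraries (log2 fold change -3.40, SE 0.0863, edgeR adjusted p = 1.08e-28). Ccr10 was at 1.95, 1.98 and 1.98 CPM in vehicle cultures, against 41.7, 36 and 39.3 CPM in aged libraries (log2 fold change -4.31). In each of these, the aged libraries were all above the vehicle libraries. Ccr6, Ccr3, Ccr9 and Xcr1 also fell, and Ccr8, with no count in vehicle cultures, was at least 19.2-fold lower there. The fall of Xcr1 was lost without aged replicate 1 or 3 or vehicle replicate 1 or 3 (adjusted p 0.0547 to 0.122), and those of Xcr1 and Ccr9 also with library totals alone.

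B-cell and plasma cell markers were low in culture in the same way. B-cell markers summed to 68 to 71 CPM in vehicle cultures and 2420 to 2520 CPM in aged libraries, with 14 of 14 lower, and 11 of 12 plasma cell markers fell. Of 18 T and natural killer cell markers 14 fell and 3 rose. No marker of these 3 lists was at 0 in either group, and their part in the result was not tested.

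Cxcr4 fell to 82.4, 82.7 and 86 CPM in vehicle cultures, against 259, 266 and 267 CPM in aged libraries. The vehicle libraries were all far below the aged ones (log2 fold change -1.66, SE 0.0376, edgeR adjusted p = 2.87e-30). Cxcl12 had 2 counts over the 3 vehicle libraries and averaged 5.84 ± 1.05 CPM in aged libraries, a ratio of 161 in favour of the aged libraries with a counting interval of 44.1 to 1330. Pdgfra, Postn and Lum of the stroma list had no count in vehicle cultures, and the summed level of the list was 187 to 188 CPM in vehicle cultures and 136 to 154 CPM in aged libraries. Of its 13 tested markers, however, 3 were higher and 9 lower in vehicle cultures. Kdr weighed heavily in the sum, at 43.5 CPM in vehicle cultures and 0.961 CPM in aged libraries. The part of these cells in the fall of Cxcl12 was not tested. Xcl1, the ligand of Xcr1, and Ccl27a, the skin ligand of Ccr10, fell as well. The call for Ccl27a was lost without aged replicate 1 or vehicle replicate 2 (adjusted p = 0.0547 and 0.0612) and with library totals alone, and its reads are uncertain because the mouse genome holds near-identical copies of it.

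Receptor genes that lie together on chromosome 9 moved both ways in culture: Ccr1 and Ccr2 rose, while Ccr3, Ccr9, Cxcr6 and Xcr1 fell. Between aged and young libraries they also differed both ways, with Ccr9, Cxcr6 and Xcr1 higher and Ccr1, Ccr2 and Ccr3 lower in aged libraries.

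The related lists changed in both directions as well. Of the atypical receptors and chemokines with other names, 6 rose and 3 fell of 11. Pf4 and Ppbp, chemokines stored in platelet granules, averaged 337 ± 5.64 and 115 ± 2.84 CPM in vehicle cultures, against 10.6 ± 1.75 and 1.09 ± 0.524 CPM in aged libraries. Markers of megakaryocytes and platelets summed to 1160 to 1180 CPM in vehicle cultures and 160 to 169 CPM in aged libraries, with 9 of 10 tested higher and Gp1bb at 0 in aged libraries, and their part in the rise was not tested. In G protein signalling 17 genes rose and 7 fell of 32. Among desensitisation genes 4 rose and 10 fell of 15, and the signal-shortening Rgs1 averaged 39.3 ± 1.84 CPM in vehicle cultures and 283 ± 4.61 CPM in aged libraries. Of the 26 cytokine and NF-kB pathway genes 15 rose and 8 fell. The NF-kB inhibitors Nfkbia and Tnfaip3 averaged 119 ± 3.71 and 110 ± 4.33 CPM in vehicle cultures, against 527 ± 5.67 and 369 ± 6.37 CPM in aged libraries, while the TNF receptor Tnfrsf1b averaged 342 ± 6.34 CPM in vehicle cultures and 73.9 ± 6.01 CPM in aged libraries. The median log2 fold changes were 0.23, 0.15, -0.39 and 0.25 for the 4 lists in the order given.

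Uridine cultures were compared with vehicle cultures to ask what uridine does to aged cells in culture. Cxcl10, Ccl9, Cxcl16, Ccl5 and Ccl2 were lower with uridine, as were Ccr2 and Cx3cr1, while Cxcr4, Ccl3 and Ccl4 were higher. Of the 37 genes tested, 9 were higher, 12 lower and 16 not called, where 38.1% of all genes were called (20.0% higher, 18.1% lower). Of 21 ligands 4 rose and 7 fell, and of 16 receptors 5 rose and 5 fell. The median log2 fold change, uridine over vehicle, was -0.41 over the ligands and 0.16 over the receptors, against 0 over all genes. The libraries of the groups did not overlap for 24 of the 37 genes, and for 50.0% of all genes.

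**Figure D3:**
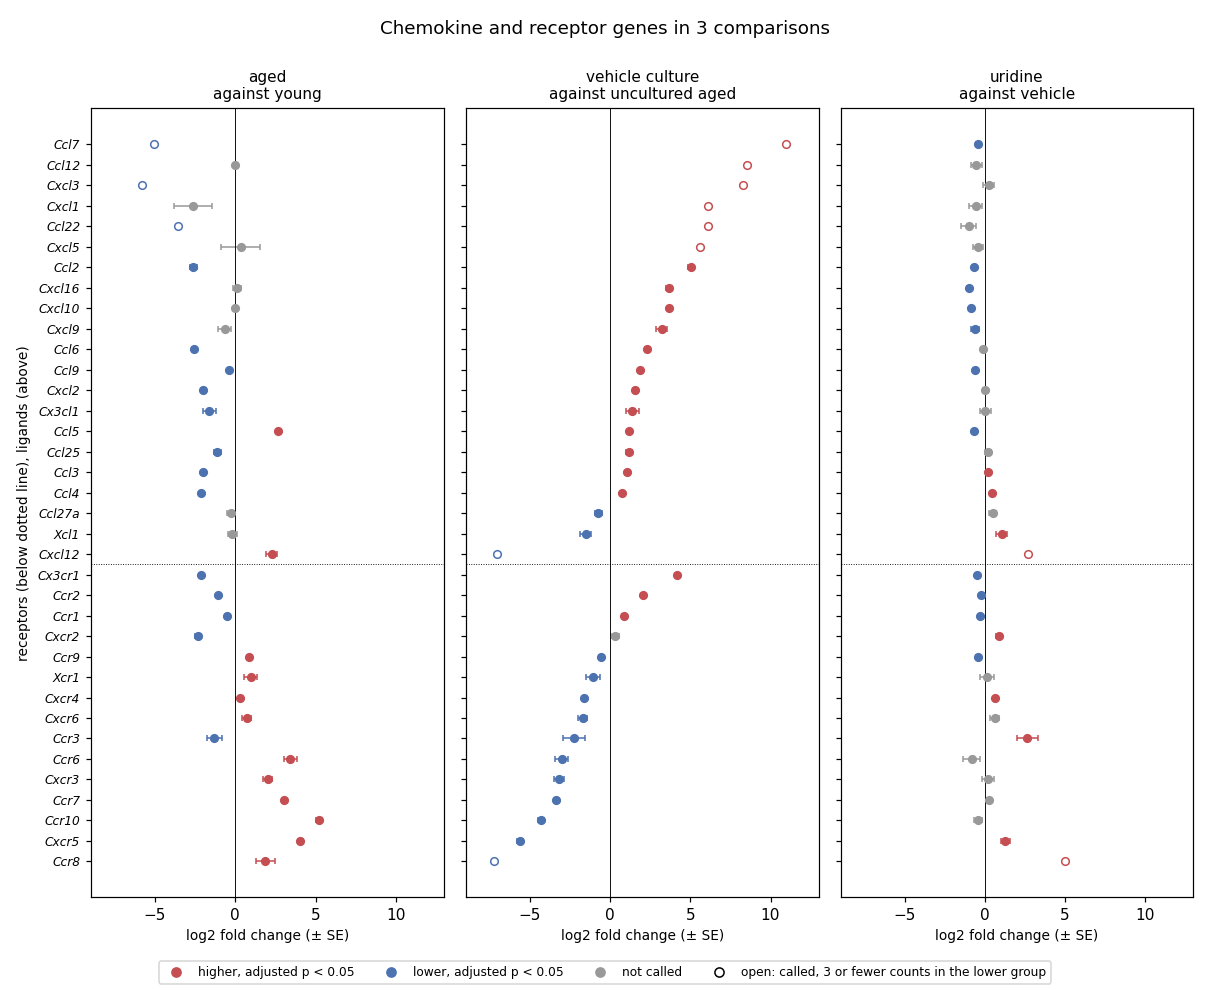
Log2 fold change and SE of 36 chemokine system genes in aged against young libraries (left), vehicle cultures against uncultured aged cells (middle) and uridine against vehicle cultures (right); open points are called genes with 3 or fewer counts in the lower group, whose fitted value depends on the prior count. The first 2 panels share the aged libraries and the last 2 share the vehicle libraries. Most ligands (above the dotted line) lie right of 0 in the middle panel, 18 of 21 called higher, and the values in the right panel are mostly within 1 of 0.

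Cxcl10 was at 130, 125 and 129 CPM in uridine cultures, against 231, 237 and 224 CPM in vehicle cultures. Every uridine library was below every vehicle library (log2 fold change -0.85, SE 0.0396, edgeR adjusted p = 2.09e-19). Ccl9 was at 215, 209 and 209 CPM in uridine cultures, against 319, 316 and 322 CPM in vehicle cultures (log2 fold change -0.60, SE 0.0324, edgeR adjusted p = 1.77e-17). Cxcl16 was at 13.8, 11.7 and 12.2 CPM in uridine cultures, against 23.2, 27.4 and 23.6 CPM in vehicle cultures (log2 fold change -0.97, SE 0.125, edgeR adjusted p = 6.4e-08), the strongest fall among the called genes. Ccl5 averaged 52.9 ± 2.41 CPM in uridine cultures and 86.6 ± 2.46 CPM in vehicle cultures, and Ccl2 20.5 ± 1.13 CPM in uridine cultures and 33.3 ± 0.27 CPM in vehicle cultures. These 5 ligands fell without overlap between the groups. Ccl7 and Cxcl9 fell by less certain amounts. The fall of Ccl7 was lost without uridine replicate 2 or 3 or vehicle replicate 2 or 3 (adjusted p 0.0589 to 0.129), and that of Cxcl9, at an adjusted p of 0.05 to the digits kept, without any of the 6 libraries (0.0728 to 0.157).

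Ccr2 and Cx3cr1, receptors of monocytes, fell a little. Cx3cr1 was at 53.5, 59.9 and 63.4 CPM in uridine cultures, against 78.5, 79.5 and 85.9 CPM in vehicle cultures (log2 fold change -0.46, SE 0.0674, edgeR adjusted p = 6.74e-07). Ccr2 was at 161, 158 and 161 CPM in uridine cultures, against 196, 192 and 187 CPM in vehicle cultures (log2 fold change -0.26, SE 0.0365, edgeR adjusted p = 3.91e-07). Neither receptor's libraries overlapped, and the uridine levels were 0.725 and 0.836 of the vehicle ones. Ccr1 and Ccr9 were called lower too, but Ccr1 overlapped between the groups and lost its call without uridine replicate 1 or 2 or vehicle replicate 1 or 2 (adjusted p 0.0702 to 0.279), and Ccr9 lost its call without uridine replicate 3 or vehicle replicate 2 (0.0514 and 0.102).

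Monocyte and macrophage markers summed to 4380 to 4440 CPM in uridine cultures and 6530 to 6630 CPM in vehicle cultures, with 12 of 17 lower, 1 higher and none at 0. Their part in the lower ligands and receptors was not tested.

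Cxcr4 was the abundant gene that went up. It stood at 134, 125 and 124 CPM in uridine cultures, against 82.4, 82.7 and 86 CPM in vehicle cultures. All uridine libraries were higher (log2 fold change 0.61, SE 0.0384, edgeR adjusted p = 1.29e-15). Ccl4 was at 44.8, 44 and 47.5 CPM in uridine cultures, against 33.6, 33.8 and 32.3 CPM in vehicle cultures (log2 fold change 0.45, SE 0.0632, edgeR adjusted p = 3.44e-07), and Ccl3 at 101, 97.8 and 98 CPM in uridine cultures, against 82.1, 88.3 and 86.6 CPM in vehicle cultures (log2 fold change 0.21, SE 0.041, edgeR adjusted p = 1e-04). Ccl3 and Ccl4 therefore moved opposite to Ccl5 and Ccl9 of the same cluster. Cxcr2 averaged 4.91 ± 0.866 CPM in uridine cultures and 2.71 ± 0.0215 CPM in vehicle cultures, and Cxcr5 1.95 ± 0.26 CPM in uridine cultures and 0.792 ± 0.402 CPM in vehicle cultures.

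The other rises were of genes at 1.79 CPM or less in uridine cultures, and those of Ccr3, Ccr8 and Cxcl12 were near the limit of counting. Ccr3 averaged 0.829 ± 0.368 CPM in uridine cultures and 0.126 ± 0.0606 CPM in vehicle cultures, and Xcl1 1.79 ± 0.541 CPM in uridine cultures and 0.854 ± 0.183 CPM in vehicle cultures. Ccr8 had 13 counts over the uridine libraries and none in vehicle cultures, at least 3.97-fold higher, and Cxcl12 had 16 counts in uridine cultures and 2 in vehicle cultures, a ratio of 7.33 with a counting interval of 1.72 to 65.7. The call for Cxcl12 was lost without uridine replicate 3 or vehicle replicate 2 (adjusted p = 0.122 and 0.076) and with limma voom (0.0912), and that for Xcl1 without uridine replicate 2 or vehicle replicate 3 (0.0794 and 0.0608). Neutrophil, B-cell, erythroid and stromal markers were also higher in uridine cultures: 12 of 13, 14 of 14, 12 of 12 and 8 of 13 tested, with 1, 0, 0 and 2 lower. Slc4a1 of the erythroid list, Ly6g of the neutrophil list and Pdgfra, Postn and Lum of the stromal list were at 0 in vehicle cultures. Cd209a of the dendritic cell list was at 0 there too. Neutrophil markers summed to 2330 to 2410 CPM in uridine cultures and 397 to 403 CPM in vehicle cultures, B-cell markers to 326 to 341 CPM in uridine cultures and 68 to 71 CPM in vehicle cultures, erythroid markers to 676 to 686 CPM in uridine cultures and 417 to 429 CPM in vehicle cultures, and stromal markers to 308 to 316 CPM in uridine cultures and 187 to 188 CPM in vehicle cultures. Col1a1 and Col1a2 weighed heavily in the stromal sum, at 76.7 and 59.1 CPM in uridine cultures and 0.236 and 1.69 CPM in vehicle cultures. Of the other lists, 6 of 8 eosinophil, 12 of 18 T and natural killer cell, 9 of 13 dendritic cell and 4 of 11 basophil and mast cell markers were higher with uridine, and 0, 3, 1 and 3 were lower. Eosinophil markers summed to 227 to 234 CPM in uridine cultures and 77.8 to 85.6 CPM in vehicle cultures, whereas the sums of T and natural killer cell markers were 153 to 159 CPM in uridine cultures and 166 to 172 CPM in vehicle cultures. The sums of dendritic cell markers were likewise lower with uridine, at 1040 to 1070 CPM in uridine cultures and 1100 to 1120 CPM in vehicle cultures. The part of these lists in the rise of these genes was not tested.

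The 16 genes without a call included the neutrophil chemokines. Cxcl2 was at 13.6, 13.8 and 13.7 CPM in uridine cultures, against 13.7, 15.9 and 11.6 CPM in vehicle cultures, with overlapping libraries (log2 fold change -0.003, SE 0.113). Cxcl1, Cxcl3 and Cxcl5 averaged 1.35 ± 0.31, 2.54 ± 0.481 and 2.8 ± 1.12 CPM in uridine cultures, against 2.02 ± 0.197, 2.18 ± 0.382 and 3.73 ± 0.59 CPM in vehicle cultures. Ccr7 averaged 9.83 ± 0.578 CPM in uridine cultures and 8.35 ± 0.763 CPM in vehicle cultures (edgeR adjusted p = 0.0743). Ccl22 missed the threshold (adjusted p = 0.0943) but was called without uridine replicate 3 (0.033), with 6 libraries only (0.0369) and with limma voom (0.0191).

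Because uridine libraries stood between vehicle and young libraries for genes outside the family, the same position was measured for each chemokine gene, as the uridine mean less the vehicle mean over the young mean less the vehicle mean. Of the 37 genes tested, 30 lay between the vehicle and young means (81.1%), where 70.6% of all genes did, and the median position was 0.399 against 0.4 over all genes. Of the 26 genes at least 2-fold apart between vehicle and young, 25 lay between, at a median of 0.382. The share of all genes at that cut was not counted, and the 70.6% has no such cut. Of the other genes at least 10 times higher in young or in vehicle libraries, 100% and 99.4% lay between. Cxcr4, higher in young than in vehicle libraries, lay at 0.34, close to the median of 0.333 given above, whereas Ccl3 and Ccl4 lay nearer vehicle, at 0.15 and 0.23. For 177 other genes at least 10 times higher in vehicle than in young libraries the median was 0.419 (quartiles 0.359 and 0.462). Among the genes higher in vehicle libraries, Ccr2 and Cx3cr1 lay at 0.33 and 0.36, and Cxcl10, Ccl9 and Cxcl16 at 0.48, 0.53 and 0.53. Of the 26, only Cxcl3 lay outside, at -0.21.

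**Figure D4:**
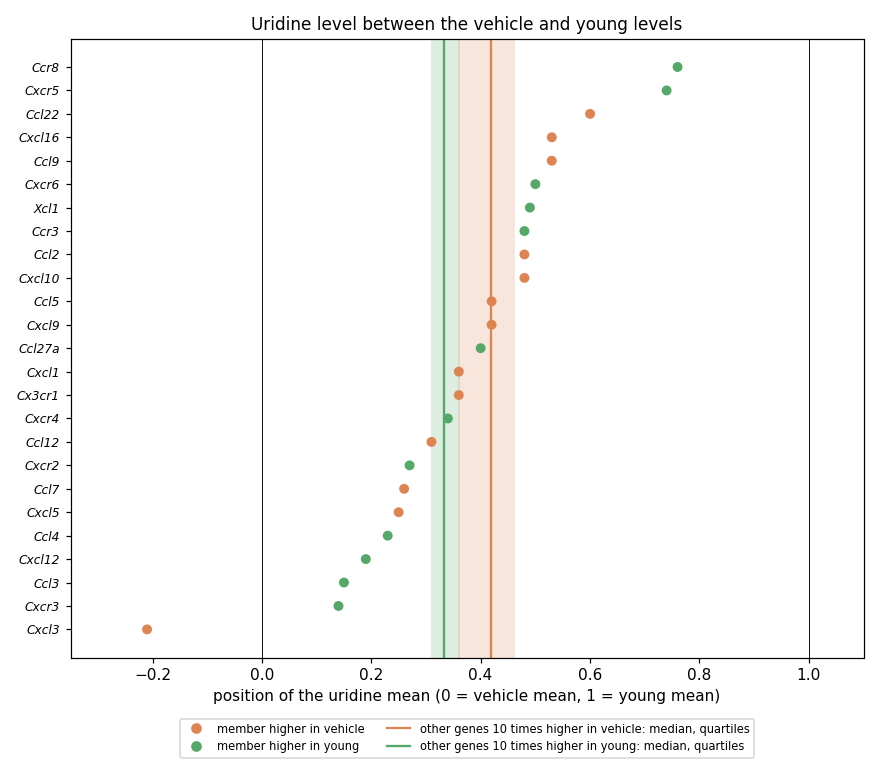
Position of the uridine mean between the vehicle mean (0) and the young mean (1) for 25 chemokine system genes at least 2-fold apart between vehicle and young libraries; lines and bands give the median and quartiles of 177 other genes at least 10 times higher in vehicle and 145 at least 10 times higher in young libraries. All but Cxcl3, at -0.21, lie between 0 and 1, and Cxcr4 (0.34) lies close to the green line at 0.333.

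The comparison was then repeated with 33.3% of the mean young profile taken out of each uridine library, a setting added after the data were seen. That share is the median position of 0.333 found in these same libraries. The direction of a gene after it therefore follows largely from whether its position was above or below 0.333. The values restate those positions and are no separate test. Of the 9 genes called higher, Cxcr5 alone remained higher, and 8 genes were called lower. Cxcl10, Ccl9, Cxcl16 and Ccl5 were still lower in uridine cultures, with log2 fold changes of -0.35, -0.32, -0.47 and -0.19. Cxcr4 came to 0.02 and Ccr2 to -0.01, neither called. Ccl3 and Ccl4 turned round, to -0.49 and -0.45 (edgeR adjusted p = 1.91e-07 and 0.000451). Over all genes the same setting left 1106 higher and 1634 lower, against 3342 and 3018 without it.

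Of the related lists, that of atypical receptors and chemokines with other names had none of 11 genes higher and 7 lower with uridine, among them Pf4, at 191 ± 5.8 CPM in uridine cultures and 337 ± 5.64 CPM in vehicle cultures. Of the 10 tested markers of megakaryocytes and platelets, 9 were lower with uridine, their summed level being 841 to 846 CPM in uridine cultures and 1160 to 1180 CPM in vehicle cultures. Their part in the fall of Pf4 was not tested. In G protein signalling 7 genes rose and 9 fell of 32, and among desensitisation genes 8 rose and 3 fell of 15, with Rgs2 at 124 ± 1.82 CPM in uridine cultures and 52.2 ± 2.08 CPM in vehicle cultures. Of the 26 cytokine and NF-kB pathway genes 6 rose and 13 fell. The NF-kB regulators Tnfaip3, Nfkbiz and Nfkbia, all induced by NF-kB themselves, averaged 344 ± 4.58, 140 ± 4.31 and 191 ± 2.9 CPM in uridine cultures, against 110 ± 4.33, 41.3 ± 2.68 and 119 ± 3.71 CPM in vehicle cultures. The median log2 fold changes of the 4 lists were -0.32, -0.01, 0.18 and -0.11 in the order given.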

How the data were processed

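The authors deposited 1 table of raw counts, with 54532 Ensembl identifiers for 12 libraries. Poly(A) RNA had been sequenced in pairs of 150 bp, per the labels' protocols. The submitters' processing notes name HISAT2 2.0.5 and mm10. No source used here names the counting program or says whether it used strand. GENCODE M21 (GRCm38, which is mm10) gave names for 54495 identifiers, and the remaining 37 took up to 0.0059% of the counts in a library.

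Groups came from the sample titles. Genes kept by filterByExpr were fitted over all 12 libraries with 1 mean per group (edgeR 4.0.16, R 4.3.3, TMM factors, quasi-likelihood F-test, Benjamini-Hochberg adjustment over 16675 genes, threshold 0.05). The total counts of 16785065 to 19025802 per library set the precision: a group with no count was bounded at 3 counts over the group, and ratios with 1 to 3 counts carry an exact binomial interval at 95% confidence, for counting error only. The 12 pairs of libraries within groups each differed by more than sampling noise (chi-square 2.27 to 3.94 per degree of freedom). RPKM used the exon union of GENCODE M21. Chemokine genes were named if over 1 CPM on average in any group, and otherwise by count and range; of each related list up to 4 called genes with the smallest p per comparison were eligible, and any marker. The members and lists were chosen with earlier results of these data known, so no pattern in them is independent support. The values of 1 counted member are not reported here. Alternatives were DESeq2 1.42.0, limma 3.58.1 (voom), other scalings and filters, 6 libraries only, a replicate block, each library left out, and, added after the data were seen, the young share subtracted and summed levels scaled by library totals.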

Additional observations from a re-analysis of the deposited data

How the results depend on the processing

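Counts of called chemokine system genes kept within 1.5 times of those reported under DESeq2, its size factors, upper-quartile factors, library totals, immunoglobulin genes left out, no low-count filter, 1 CPM in 3 libraries, 6 libraries only and limma voom. The exception was the added setting with the young share subtracted, where 1 gene was higher in uridine cultures. Leaving out each library in turn gave 10 to 12 higher and 14 to 17 lower in aged against young, 8 to 9 and 8 to 10 in uridine against vehicle, and 22 and 12 to 14 in vehicle cultures against uncultured aged cells. The replicate numbers did not pair the libraries (correlations of -0.0187 to 0.0207 between same-numbered libraries), and with them as a replicate block the counts were 11 and 16, 9 and 11, and 22 and 14; Xcr1 in aged against young and Cxcl9 in uridine against vehicle were then not called (adjusted p = 0.0532 and 0.0646). Without the low-count filter neither was called (0.0688 and 0.0661), nor was Cxcl9 with upper-quartile factors or library totals (0.0544 and 0.0597), or Ccr1 in uridine against vehicle with library totals (0.0523).

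Directions that turned were of genes not called, apart from Cxcr4 below and from the subtracted setting; the cause was not tested. For uridine against vehicle, the log2 fold change of Cx3cl1 was -0.01 with DESeq2 and with its size factors, 0 with no filter, -0.02 without uridine replicate 2 and -0.26 to 0.29 over the libraries left out (lowest without vehicle replicate 3). That of Cxcl2 was 0.01 with upper-quartile factors, 1 CPM in 3 libraries, 6 libraries or limma voom, 0.02 with library totals, 0 with the replicate block and without uridine replicate 1, and -0.11 to 0.11 over the libraries left out (highest without vehicle replicate 2). Over the libraries left out, Ccl25 ran from -0.01 (without uridine replicate 1) to 0.3, Cxcr3 from -0.28 (without uridine replicate 2; -0.14 without vehicle replicate 1) to 0.51, and Xcr1 from -0.14 (without vehicle replicate 3) to 0.38. For aged against young, Cxcl16 came to -0.21 and Cxcr4 to -0.02 with library totals, and Cxcl16 ran from -0.18 (without aged replicate 1) to 0.39 over the libraries left out. Ccl12 was 0 with the replicate block and without young replicate 2 and 0.36 with limma voom. Likewise Xcl1 ran from -0.37 to 0.05 (without aged replicate 2), Cxcl10 from -0.09 to 0.03 (without young replicate 1), and Cxcl5 from -0.55 (without aged replicate 3; -0.24 and -0.19 without young replicates 1 and 2) to 3.43. With the young share subtracted, values were 0.05 for Ccl12, -0.49 for Ccl3, -0.45 for Ccl4, 0.13 for Ccl7, -0.15 for Cx3cl1, -0.89 for Cxcl12, 0.15 for Cxcl5, -0.56 for Cxcr2 and -0.52 for Cxcr3.

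Depth limits the genes under about 1 CPM, where a few reads set the value. Genes with reads shared between strands or copies (Cxcl16, Xcl1, Ccr9, Ccl25, Cxcr5, Cxcl10, Ccl27a) are uncertain, since no source used here says whether the counting used strand.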

Other observations

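Of the chemokine system genes 9 were below the filter of the test, at no more than 0.689 CPM in any library. They were the ligands Ccl1, Ccl8, Ccl17, Ccl24, Ccl28 and Cxcl14 and the receptors Ccr4, Cxcr1 and Ccr1l1. Ccl8, which lies next to Ccl12, had 14 counts in vehicle cultures and none in aged libraries, at least 3.73-fold more in vehicle cultures, and its neighbours Ccl2, Ccl7 and Ccl12 were higher there too. Cxcl14 had no count in vehicle cultures and 13 in aged libraries, at least 5.42-fold less in vehicle cultures. In young libraries it had 3 counts, a ratio of aged over young of 5.58 with a counting interval of 1.53 to 30.5. Cxcr1, a relative of Cxcr2, averaged 0.134 CPM in uridine cultures, 0.13 in vehicle cultures, 0.0452 in aged and 0.0896 in young libraries.

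Cxcl11, the remaining Cxcr3 ligand, is no member because the annotation lists it as a polymorphic pseudogene. It averaged 3.55 CPM in uridine cultures, 6.79 in vehicle cultures, 0 in aged and 0.0548 in young libraries. Its log2 fold change in uridine against vehicle cultures was -0.93 (edgeR adjusted p = 0.00207), next to -0.85 for Cxcl10 and -0.61 for Cxcl9. Ligands that had no count in any library included Ccl19, Ccl21a and Ccl20, which attract cells bearing Ccr7 or Ccr6, and Cxcl13, which attracts cells bearing Cxcr5. The annotation lists Ccl19 and Ccl21a under multiple identifiers, and how reads shared between such copies were counted is not known. For these ligands a lack of counts may therefore not mean absence.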
